A study of Bos taurus with 13 samples.

Results

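Testes of newborn bull calves were compared between dams given organic selenium (OSe) and dams given inorganic selenium (ISe). The comparison used the 4 arrays titled as OSe testis and the 5 arrays titled as ISe testis, 9 of the 13 arrays in the series, over all 26773 probe sets. Each array carried the RNA of 1 calf, and differences between animals are part of the spread within a group. The 24 dams were Angus cross cows, assigned at random, 8 to a treatment, to individual free-choice intake of a vitamin-mineral mix with 35 ppm of selenium. In ISe the selenium was sodium selenite, and in OSe it was Sel-Plex, a selenium yeast. Feeding ran for 4 months before breeding and through gestation, and testis was taken within 2 days of birth. All calves shared this level of selenium and the common mix, and no group came from unsupplemented cows. The intake of each cow was free, and the sources used here do not give its amount. The 4 calves of the mixed source (Mix, 50% of each form) entered the model only to estimate the spread, and their values are given beside some genes.

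Selenium is built into selenoproteins as the amino acid selenocysteine, which is read from a UGA codon with the help of a stem-loop in the messenger RNA. Selenite is reduced to selenide before this use, whereas the selenomethionine of yeast can also replace methionine in any protein and releases selenium when it is broken down. In the testis, GPX4 builds the sperm midpiece capsule and protects cells from lipid peroxidation, and SELENOP carries selenium to the organ. At birth the cords hold Sertoli cells and gonocytes, and Leydig cells between the cords make androgens.

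The arrays carried the markers of testis. INSL3, a Leydig cell hormone that takes part in testis descent, lay between 12.86 and 13.66 on the log2 scale in the 9 calves. AMH, which Sertoli cells secrete to remove the Müllerian ducts, lay between 12.14 and 12.77, and DDX4, an RNA helicase of germ cells, between 7.99 and 9.26. The arrays correlated at 0.979 to 0.991 across probe sets. The number of arrays limits the precision, and the spread within a group may be partly technical, because each calf was measured once. OSe animal 2 stood apart: its median was 7.74 against 7.61 to 7.65 on the other 12 arrays. It was the calf farthest from the 9-calf median in 23.7% of probe sets, against 5.88% to 12.7% for the others, and it had the lowest array weight of the 13, 0.4827. ISe animal 2 carried XIST, the RNA that coats an inactive X chromosome, at 9.05, against 6.34 to 6.62 in the other 8 calves. The same calf also carried the Y-linked DDX3Y, a translation helicase chosen after its values were seen, at 8.25 (8.47 to 8.84 in the others).

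No gene passed the test between organic and inorganic selenium. In limma's moderated test with Benjamini-Hochberg adjustment, 0 of 26773 probe sets (0%) reached an adjusted p of 0.05, and the lowest adjusted p was 0.9999. Each gene value below therefore stands as a measured difference that did not pass. At an unadjusted p under 0.05 there were 701 probe sets (2.62%), 512 higher in OSe (1.91%) and 189 lower (0.706%). That is fewer than the 1339 expected by chance at this threshold if no probe set differed. An unmoderated linear model also called 0 and placed 679 under the unadjusted threshold. The excess on the higher side moved with the scaling and with OSe animal 2: the split was 381 higher and 332 lower after quantile normalization, 376 and 313 after subtracting array medians, and 262 and 371 without OSe animal 2.

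Most differences were small beside the spread between calves. The median standard deviation (SD) of a probe set was 0.150 within ISe and 0.162 within OSe, and the median absolute difference between the groups was 0.0707. The difference exceeded the pooled SD in 3493 probe sets (13%). It went beyond 0.5 in 281 probe sets (1.05%), and in 22 of these the calves of the groups did not overlap. In 199 probe sets of any size (0.743%) every OSe calf lay on one side of every ISe calf, 140 of them higher (0.523%) and 59 lower (0.22%). The 95% interval of the difference reached a median of 0.244 to each side of the estimate, or 1.18-fold. For 21639 probe sets (80.8%) the whole interval lay within 0.5 of 0, and for 26128 (97.6%) within 1.

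**Figure D1:**
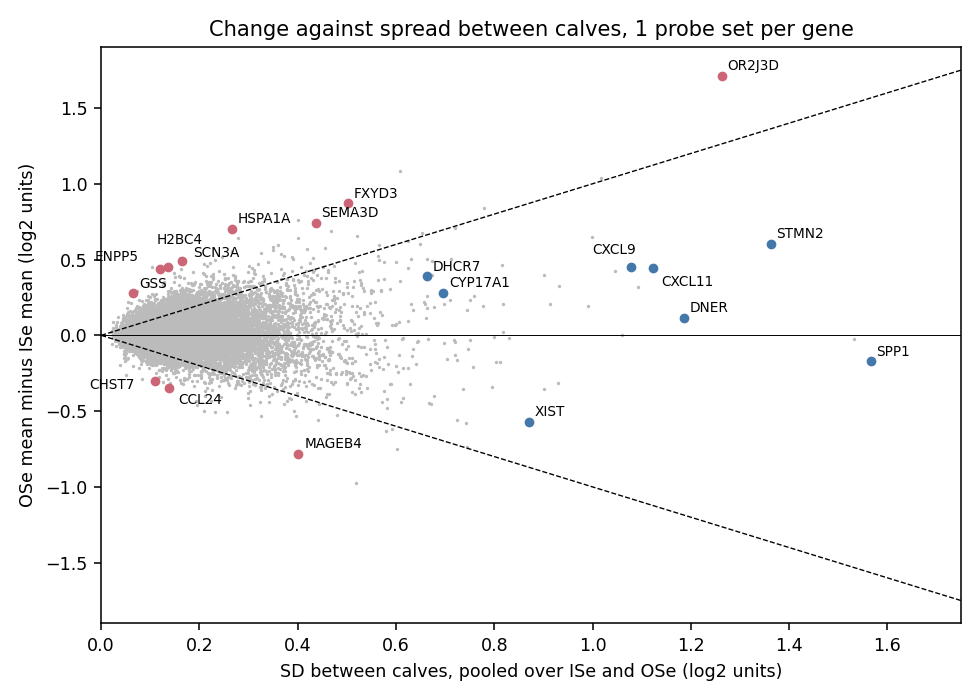
Each grey point is 1 gene (18087, 1 probe set each). The horizontal axis is the SD between calves pooled over ISe and OSe, and the vertical axis is the OSe mean minus the ISe mean, both in log2 units. Dashed lines mark a difference equal to the SD. Red and blue points are named genes: GSS, H2BC4 and ENPP5 lie far above the dashed line at a small SD, whereas SPP1, STMN2, DNER, CXCL9 and CXCL11 lie inside it at SDs above 1.

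Among the 15 genes that lay higher in OSe with the smallest p, the differences ran from 0.23 to 0.87 (1.17-fold to 1.83-fold), and in 8 of the 15 the groups did not overlap. These genes were chosen by this same contrast, so the counts describe the choice. H2BC4, a replication-dependent H2B histone, had the smallest p of a named gene. It measured 11.87, 12.06, 12.32, 12.14 and 11.95 in ISe animals 1 to 5 and 12.58, 12.51, 12.52 and 12.45 in OSe animals 1 to 4. Every OSe calf lay above every ISe calf, and the Mix calves, between 11.97 and 12.35, lay below every OSe calf. The difference was 0.45 ± 0.099 (SE), or 1.36-fold (limma adjusted p = 0.9999), and histone genes share sequence, so neighbours could contribute to this probe set.

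GSS, glutathione synthetase, which adds glycine to complete glutathione, varied little within each group. It measured 7.90, 7.76, 7.81, 7.81 and 7.83 in ISe and 7.98, 8.14, 8.15 and 8.11 in OSe. OSe animal 1 was the lowest of its group and still above the highest ISe calf, and the Mix calves lay between 7.85 and 7.95, inside the gap or among the ISe calves. The difference was 0.28 ± 0.063 (limma adjusted p = 0.9999), and it lay between 0.26 and 0.32 when any 1 of the 9 calves was left out. ENPP5, a membrane protein of the nucleotide pyrophosphatase and phosphodiesterase family, measured 9.21, 9.30, 9.57, 9.22 and 9.34 in ISe and 9.88, 9.75, 9.71 and 9.73 in OSe. The groups did not overlap, ISe animal 3 came nearest, and the difference was 0.44 ± 0.10.

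HSPA1A, the inducible cytosolic chaperone Hsp70, showed a larger difference with more spread. It measured 9.73, 9.50, 9.67, 9.77 and 10.06 in ISe and 10.46, 10.04, 10.85 and 10.45 in OSe. OSe animals 1, 3 and 4 lay above every ISe calf, whereas OSe animal 2 lay just under ISe animal 5. The difference was 0.70 ± 0.19, or 1.63-fold, and the Mix calves lay between 9.49 and 10.32, across both groups. A near-identical neighbouring gene exists for this chaperone, so the probe set may report both copies.

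ELOVL6, the enzyme that lengthens palmitate to stearate, measured 9.25, 9.13, 9.47, 9.53 and 9.44 in ISe and 9.59, 9.71, 9.94 and 9.75 in OSe. The groups touched without overlapping, with ISe animal 4 and OSe animal 1 nearest to each other, and the difference was 0.38 ± 0.11. SCN3A, a voltage-gated sodium channel, measured 6.62, 6.86, 6.75, 6.62 and 6.65 in ISe and 7.19, 7.36, 6.88 and 7.34 in OSe. OSe animal 3 lay only just above ISe animal 2, and the difference was 0.49 ± 0.15. ZNF75A, a zinc finger protein, also separated the groups, with ISe calves between 7.73 and 7.99 and OSe calves between 8.04 and 8.49. So did MTM1, the phosphoinositide phosphatase myotubularin, with a difference of 0.23 ± 0.074, and MYO6, the myosin that walks towards the minus end of actin, with 0.23 ± 0.075.

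The other leading genes overlapped between the groups. FXYD3, a small regulator of the sodium-potassium pump, measured 6.19, 6.62, 7.47, 6.22 and 6.49 in ISe and 7.52, 8.12, 7.08 and 7.16 in OSe. ISe animal 3 lay among the OSe calves, and OSe animal 2 was the highest of all. SEMA3D, a secreted guidance protein, was likewise highest in OSe animal 2, at 10.1 against 9.44 to 9.47 in the other OSe calves and 8.17 to 9.53 in ISe. Its difference was 0.74 ± 0.23 and 0.58 without that animal. For FXYD3 the same pair of values was 0.87 ± 0.28 and 0.65. C4A, VTI1A, a SNARE of the Golgi, GGACT, which clears a crosslinked glutamyl-lysine product, and MOG, named for the myelin protein it encodes, lay higher by 0.35, 0.29, 0.35 and 0.40.

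Among the 15 genes that lay lower in OSe with the smallest p, the differences ran from -0.17 to -0.78 (ISe 1.12-fold to 1.72-fold above OSe), and in 3 the groups did not overlap. They too were chosen by this same contrast, so the counts describe the choice. CHST7, a sulfotransferase of chondroitin chains, measured 7.52, 7.65, 7.84, 7.80 and 7.66 in ISe and 7.28, 7.47, 7.41 and 7.40 in OSe. Every OSe calf lay under every ISe calf, and the difference was -0.30 ± 0.079 (limma adjusted p = 0.9999). The Mix calves, between 7.31 and 7.47, lay with the OSe calves. CCL24, an eosinophil-attracting chemokine of macrophages, measured 7.86, 7.87, 8.07, 8.11 and 7.86 in ISe and 7.65, 7.58, 7.41 and 7.78 in OSe. The groups did not overlap, OSe animal 3 was the lowest, and the difference was -0.35 ± 0.091. CMTM5, a membrane protein of the chemokine-like factor family, was the other gene without overlap, with a difference of -0.25 ± 0.088.

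MAGEB4, a germ cell gene of the MAGE family, had the largest difference of these 15, but its probe sets differed. One probe set measured 9.32, 9.66, 8.90, 9.78 and 9.57 in ISe and 8.65, 8.20, 9.29 and 8.50 in OSe, a difference of -0.78 ± 0.22. OSe animal 3 lay within the ISe range and the other OSe calves under it. A second probe set of the gene gave -0.13 ± 0.24.

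LOXL1, which crosslinks elastin, lay at 8.87 to 9.26 in ISe and 8.66 to 8.94 in OSe (difference -0.32 ± 0.12). NID1, a linker of basement membranes, differed by -0.29 ± 0.11. TGFB2, a transforming growth factor, measured 9.55, 9.38, 9.48, 9.34 and 9.59 in ISe and 8.87, 9.46, 9.02 and 9.33 in OSe. OSe animals 1, 3 and 4 lay under every ISe calf and OSe animal 2 among them, and the difference was -0.30 ± 0.11. The chloride-proton exchanger CLCN4 differed by -0.31 ± 0.11, and the Rac exchange factor TIAM2 by -0.28 ± 0.11. RELL2 (-0.28), MS4A18 (-0.46), DUSP26 (-0.17), KLK1 (-0.40) and MIR1249 (-0.29) completed the 15 with GPX3, given below.

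**Figure D2:**
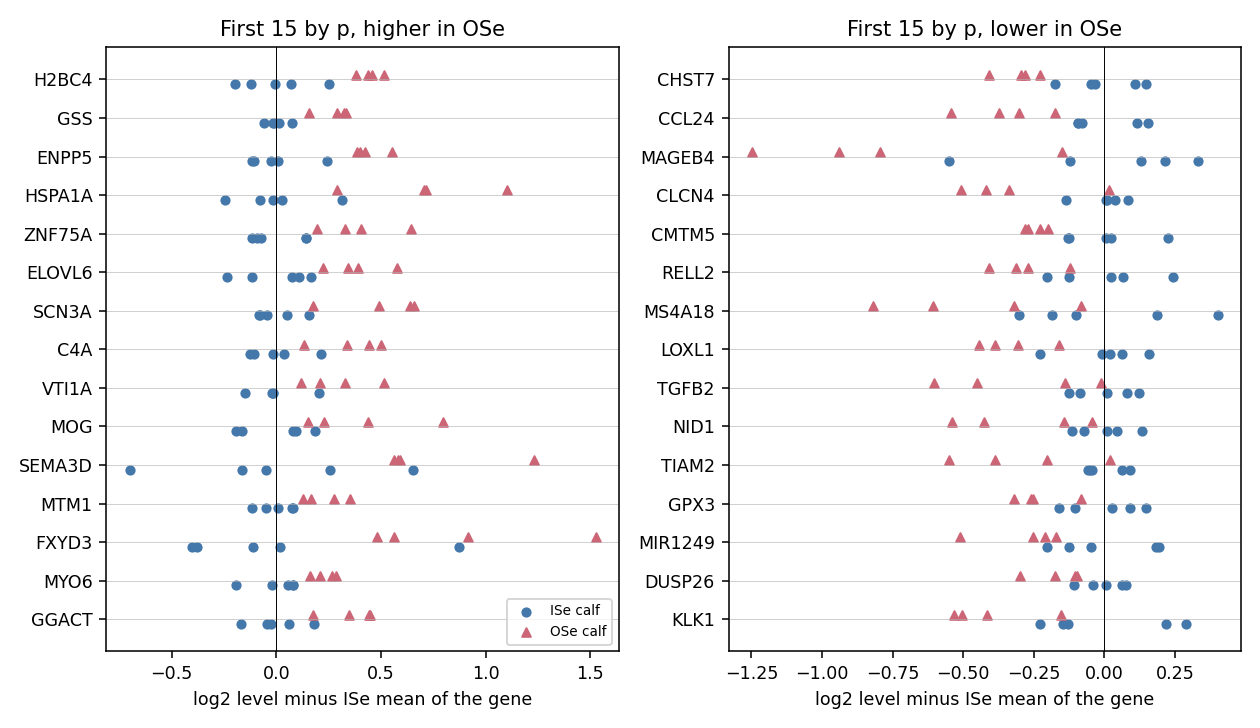
Values of the 15 genes that lay higher and the 15 that lay lower in OSe with the smallest p, as log2 level minus the ISe mean of the gene. Blue circles are ISe calves and red triangles OSe calves, each 1 calf. GSS, H2BC4, ENPP5, CHST7 and CCL24 show no overlap, whereas FXYD3, SEMA3D and MAGEB4 spread widely.

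The selenoprotein genes lay close together in the groups. Of 25 measured, 14 lay higher in OSe and 11 lower, with a median difference of 0.012, against 0.022 over all genes; after quantile normalization it was -0.0052. One, GPX3, had an unadjusted p under 0.05 and 0 were higher at that level, against 0.47% of genes lower and 1.55% higher in the whole comparison. For 24 of the 25 the 95% interval lay within 0.5 of 0, from -0.42 to 0.44, which bounds those differences at 0.747-fold to 1.36-fold. The 24 include DIO1, DIO2 and GPX2, whose means lay under 6.26, the 25th percentile of probe set means. At such low levels the intervals may bound little about expression. DIO3, the deiodinase that inactivates thyroid hormone, was the exception, with an interval from -0.73 to 0.33.

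GPX3, the secreted glutathione peroxidase, measured 8.30, 7.99, 8.24, 8.04 and 8.18 in ISe and 7.89, 8.06, 7.89 and 7.83 in OSe. OSe animals 1, 3 and 4 lay under every ISe calf, and OSe animal 2 lay among them. The difference was -0.23 ± 0.089, with the ISe mean 1.17-fold above the OSe mean (limma adjusted p = 0.9999), and the Mix calves lay between 7.67 and 7.96, mostly under the OSe calves. GPX1, the cytosolic peroxidase, differed by -0.043 ± 0.084 with an interval from -0.22 to 0.14. GPX4, the peroxidase of membrane lipids, differed by -0.057 ± 0.11 with an interval from -0.29 to 0.18. SELENOP, the carrier, and SELENOW, a small thioredoxin-like protein, differed by -0.077 ± 0.12 and -0.11 ± 0.079.

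Thioredoxin reductases and selenoproteins of the endoplasmic reticulum gave values of the same order. TXNRD1, the cytosolic reductase, differed by 0.046 ± 0.070, TXNRD2 of mitochondria by -0.032 ± 0.067 and TXNRD3, the thioredoxin-glutathione reductase of testis, by 0.088 ± 0.096. SELENOT (0.14 ± 0.086) and SELENOK (0.12 ± 0.13), both of the endoplasmic reticulum, had the highest differences of the 25, and SEPHS2, which makes the selenium donor and is itself a selenoprotein, lay at -0.13 ± 0.13. SELENOV, a testis-enriched selenoprotein, differed by 0.11 ± 0.092 and was highest in OSe animal 2, without which the difference was 0.042.

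Genes for selenium handling and selenocysteine insertion showed no larger pattern. Of 23 listed, 21 were measured, 14 lay higher in OSe, the median was 0.058, and 0 had an unadjusted p under 0.05 (2.02% of all genes did). SCLY, which releases selenium from selenocysteine, differed by 0.20 ± 0.14. SELENBP1, a methanethiol oxidase that binds selenium and is no selenoprotein, differed by 0.27 ± 0.19, with ISe animal 4 the lowest at 7.31.

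**Figure D3:**
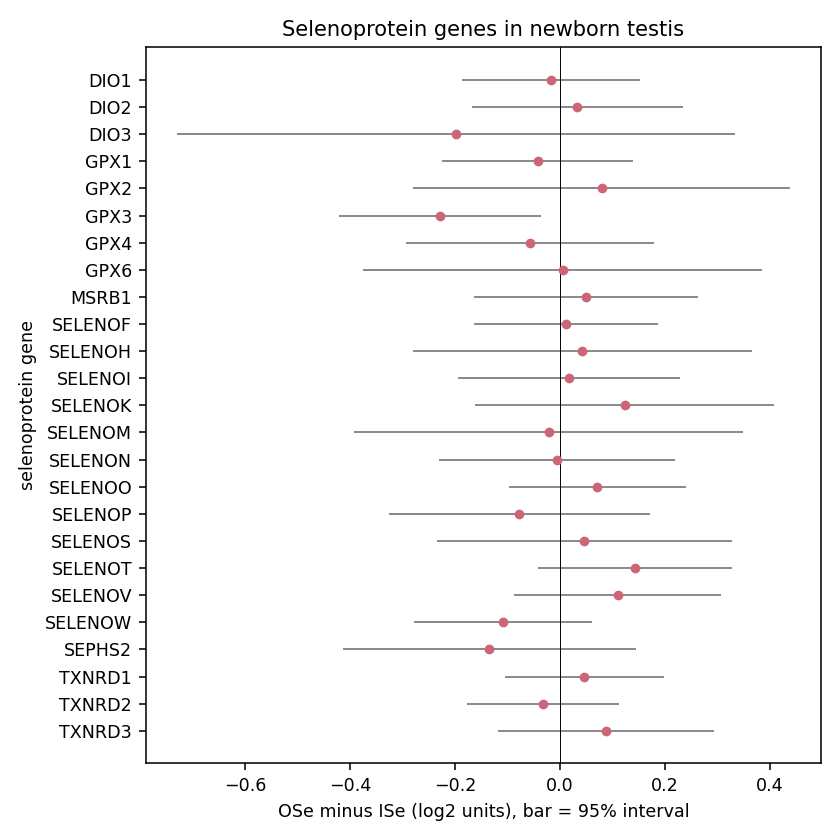
Difference between OSe and ISe means for each of the 25 measured selenoprotein genes, in alphabetical order, in log2 units. Points are differences and bars 95% intervals from the limma fit; the interval of GPX3 alone leaves out 0 before adjustment, and that of DIO3 is the widest.

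Glutathione genes lay mostly on the higher side. Of 30 measured genes of glutathione synthesis and transfer, 23 lay higher in OSe, against 59.8% of all genes, and the median was 0.095 (0.076 after quantile normalization). GSS and GSTA4 were higher at an unadjusted p under 0.05, where 1.55% of all genes were, and 0 were lower (0.47% of all genes). GSTA4, a transferase that clears 4-hydroxynonenal, measured 10.85, 10.57, 10.83, 10.83 and 10.90 in ISe and 10.89, 11.02, 11.25 and 11.01 in OSe. OSe animals 2, 3 and 4 lay above every ISe calf, OSe animal 1 lay within their range, and the difference was 0.25 ± 0.089. GSTA2, another alpha-class transferase, was far more variable: it measured 7.12, 5.62, 6.55, 7.91 and 7.03 in ISe and 6.66, 8.02, 8.12 and 7.95 in OSe. OSe animals 2 to 4 lay above the ISe range, OSe animal 1 lay inside it, and the difference was 0.84 ± 0.39; alpha-class transferases share sequence. The list mean relative to ISe was -0.075 in OSe animal 1, 0.24 in animal 2, 0.16 in animal 3 and 0.048 in animal 4, so animals 2 and 3 carried most of it.

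Of 22 measured antioxidant enzymes and NRF2 targets, 16 lay higher, with a median of 0.051. Over all genes 59.8% lay higher, with a median of 0.022. TALDO1, transaldolase of the pentose phosphate pathway, was the 1 with an unadjusted p under 0.05, where 1.55% of all genes were higher. For TALDO1, OSe calves lay between 8.64 and 8.78 and ISe calves between 8.40 and 8.62, without overlap (0.514% of all genes were higher without overlap). NQO1, a quinone reductase, differed by 0.25 ± 0.17. Among methionine and one-carbon genes, 15 of 22 lay higher (median 0.063), led by MAT1A, which makes S-adenosylmethionine, at 0.29 ± 0.12. Of 23 ATF4 targets and amino acid starvation genes, 20 lay higher (median 0.085), led by PSAT1 of serine synthesis at 0.27 ± 0.12. The medians of these lists and of the glutathione list kept their sign in all 18 alternatives.

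Genes of sterol synthesis and uptake differed between the groups through 1 calf. All 16 measured members of 24 listed had a higher mean in OSe, with a median of 0.32, but without OSe animal 3 the median was 0.042 and 10 lay higher. OSe animal 3 was the highest of all 13 arrays in 13 of the 16 genes, and in 7 it led the next array by at least 1. This calf was the highest of the 9 in 6.88% of all genes. Its median lead over the ISe mean was 1.09, or 2.13-fold. DHCR7, which makes cholesterol from 7-dehydrocholesterol, measured 9.29, 9.57, 9.18, 9.31 and 9.41 in ISe and 9.28, 9.20, 11.24 and 9.26 in OSe. Apart from OSe animal 3 the groups overlapped throughout, and the difference of 0.39 ± 0.33 became -0.11 without it. SQLE, the squalene epoxidase, measured 9.07, 9.11, 8.76, 8.69 and 9.02 in ISe and 8.90, 9.05, 10.75 and 8.96 in OSe, with the same calf alone above the rest.

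The lead of OSe animal 3 ran along the pathway. IDI1, which isomerizes isopentenyl units, reached 11.28 in that calf, against 9.58 to 10.10 in ISe. CYP51A1, the lanosterol demethylase, reached 10.04 against 7.66 to 8.39, MSMO1, the next oxidase, 11.28 against 9.30 to 9.79, and NSDHL, the decarboxylating dehydrogenase, 10.35 against 8.70 to 8.99. HSD17B7, a ketosteroid reductase of the pathway, was the 1 member with an unadjusted p under 0.05 (1.55% of all genes were higher at that level). It measured 8.64, 8.73, 8.91, 8.63 and 8.45 in ISe and 8.83, 9.22, 9.21 and 8.84 in OSe, where animals 2 and 3 were both high, and the difference was 0.35 ± 0.14 and 0.29 without animal 3. HMGCS1, FDPS, ACAT2 and STARD4 share probe sets with other genes and are not reported. ACSS2, acetyl-CoA synthetase, and FADS1, the delta-5 desaturase, were named after their values were seen. They reached 10.09 and 11.05 in the same calf, above 8.46 to 8.85 and 9.77 to 10.18 in ISe. Of 17 measured fatty acid synthesis genes 13 had a higher mean in OSe (median 0.074), and without OSe animal 3 the median was -0.040.

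**Figure D4:**
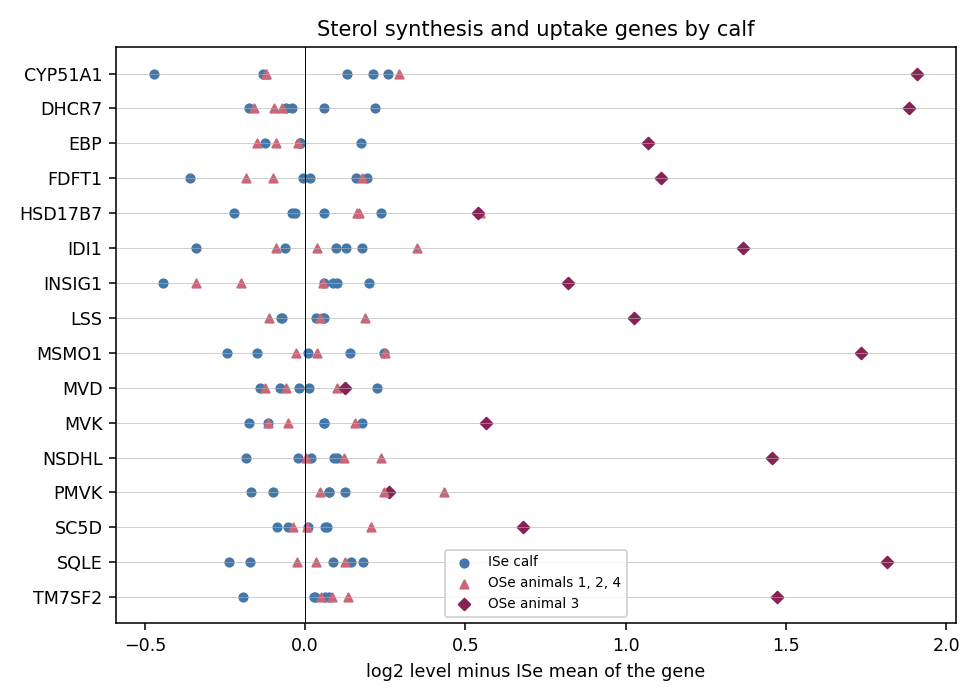
The 16 measured genes of sterol synthesis and uptake, in alphabetical order, as log2 level minus the ISe mean of the gene. Blue points are ISe calves, red triangles OSe animals 1, 2 and 4, and purple diamonds OSe animal 3, which is the highest point in 13 of the 16 genes while the other OSe calves mix with ISe.

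The steroidogenic genes CYP17A1, HSD3B1, CYP11A1 and SCARB1 were also highest of the 9 calves in OSe animal 3. CYP17A1, the enzyme that turns progestins into androgens, measured 11.65, 11.01, 11.33, 11.17 and 11.31 in ISe and 10.38, 11.19, 12.77 and 11.97 in OSe. OSe animal 3 was the highest and OSe animal 1 the lowest of the 9, and the difference was 0.28 ± 0.41, -0.12 without animal 3. HSD3B1, the 3-beta-hydroxysteroid dehydrogenase, differed by 0.31 ± 0.15 and CYP11A1, the side-chain cleavage enzyme, by 0.29 ± 0.36. Without animal 3 these differences were 0.17 and 0.053. SCARB1, the receptor that takes up cholesterol from lipoproteins, measured 11.46, 11.45, 11.17, 11.33 and 11.46 in ISe and 11.29, 11.62, 11.97 and 11.70 in OSe, with OSe animals 2 to 4 above every ISe calf and animal 1 among them (0.27 ± 0.12, and 0.16 without animal 3). Of 24 measured genes of Leydig cells and steroidogenesis 18 lay higher (median 0.063), against 59.8% of all genes (median 0.022). On each side 1 had an unadjusted p under 0.05 (1.55% of all genes higher, 0.47% lower). The lower one was SRD5A2, a 5-alpha-reductase (-0.26 ± 0.11). The list mean of OSe animal 3 was 0.22 and that of OSe animal 1 -0.13, around an ISe range of -0.064 to 0.063. The Leydig markers INSL3 (-0.076 ± 0.14) and LHCGR, the luteinizing hormone receptor (0.064 ± 0.18), differed by less than their errors. In whole tissue, fewer cells of a type and less RNA per cell cannot be told apart.

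Sertoli cell genes lay slightly higher. Of 28 measured, 21 lay higher in OSe, against 59.8% of all genes. The median was 0.088, against 0.022 over all genes, and without OSe animal 2 these were 0.040 and -0.0058. At an unadjusted p under 0.05 there was 1 gene, on the higher side, where 1.55% of all genes lay. That gene was SOX9, the transcription factor that sets Sertoli fate, which measured 8.80, 8.43, 8.36, 8.46 and 8.63 in ISe and 9.06, 8.61, 8.65 and 9.05 in OSe. OSe animals 1 and 4 lay above every ISe calf, OSe animals 2 and 3 overlapped with ISe, and the difference was 0.31 ± 0.12. AMH (-0.011 ± 0.13) and WT1, a transcription factor of the same cells (0.022 ± 0.093), differed by less than their errors. The mean of the list was 0.035 to 0.11 in OSe and -0.069 to 0.056 in ISe, so the groups overlapped.

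Germ cell genes varied more between calves than between groups. Of 42 measured genes of gonocytes and spermatogonia 28 lay lower in OSe, whereas 59.8% of all genes lay higher. The median of this list was -0.080, and 0 had an unadjusted p under 0.05 (2.02% of all genes did). List means ran from -0.35 in ISe animal 3 to 0.27 in ISe animal 4, and the OSe calves, from -0.19 to 0.14, lay inside that range. DAZL, a germ cell translation factor, measured 11.05, 11.55, 10.79, 11.46 and 11.19 in ISe and 11.22, 10.59, 11.09 and 10.84 in OSe (-0.27 ± 0.18, and -0.16 without OSe animal 2). DDX4 differed by -0.21 ± 0.27, -0.016 without OSe animal 2, and the spermatogonial ubiquitin hydrolase UCHL1 by -0.21 ± 0.15, -0.078 without OSe animal 3, and in both the OSe calves lay largely among the ISe calves. Of 27 measured genes of meiotic and later germ cells 20 lay lower, with a median of -0.035.

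Matrix, myoid and vessel genes were highest in OSe animal 2. Of 40 collagen and matrix genes 27 lay lower in OSe with a median of -0.029, which was -0.12 without OSe animal 2 and 0.030 without OSe animal 3. The list mean was 0.30 in OSe animal 2 and -0.29 in OSe animal 3, the ends of the 9 calves. The same animal 2 had list means of 0.33 for peritubular myoid and smooth muscle genes and 0.29 for endothelium, above every other of the 9 calves in both. FN1, fibronectin, was 10.62 in that calf and 9.16 to 9.95 in ISe, and ACTG2, smooth muscle gamma actin, 8.48 against 6.56 to 7.57. Of 33 measured genes of glycosaminoglycan sulfation and synthesis 17 lay higher and 16 lower, so CHST7 stood without a shift of its list (median 0.013). The part of the mix of cells on the array of OSe animal 2 in these values was not tested.

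**Figure D5:**
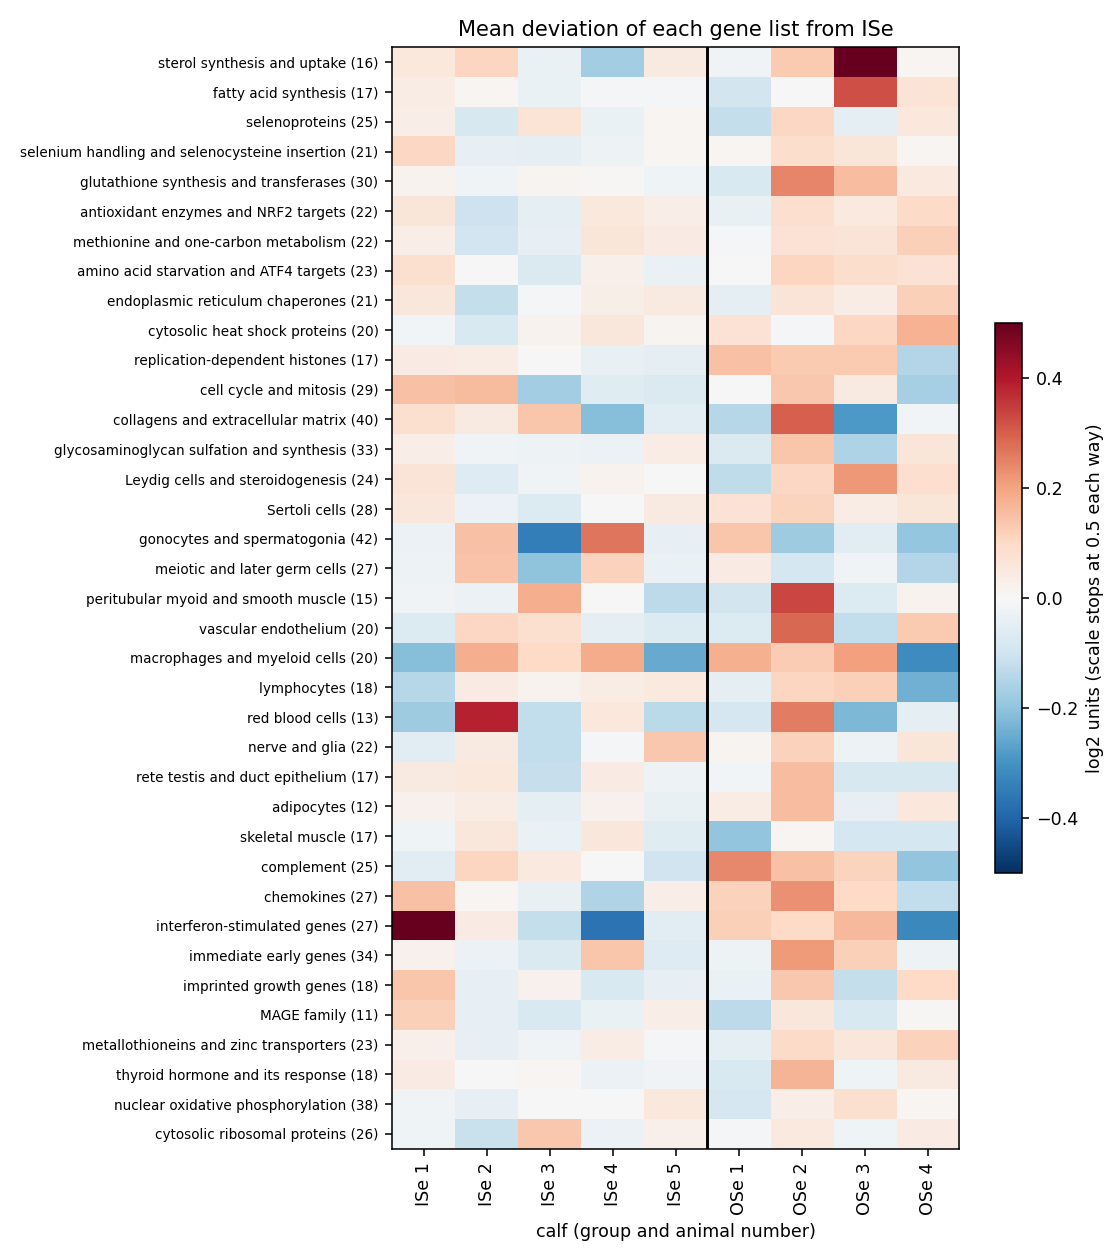
Mean of each gene list (rows, measured members in brackets) in each of the 9 calves (columns), as log2 level minus the ISe mean of each gene. Red is higher and blue lower, and the colour scale stops at 0.5 each way, so the 1.11 of the sterol list in OSe animal 3 is shown at its end; OSe animal 2 is red in most rows.

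Beside HSPA1A, the heat shock list held little. Over all genes 59.8% lay higher (median 0.022), and 1.55% were higher and 0.47% lower at an unadjusted p under 0.05. Of 20 measured cytosolic heat shock genes 15 lay higher (median 0.054), and 1 fell under that threshold on each side. The lower one was HSP90AB1, the constitutive Hsp90, at -0.27 ± 0.12. The co-chaperone DNAJB4 differed by 0.30 ± 0.15 and HSPA8, the constitutive Hsc70, by 0.15 ± 0.080. Of 21 measured chaperones of the endoplasmic reticulum 15 lay higher with 0 under the unadjusted threshold, and XBP1, the transcription factor of the unfolded protein response, differed by 0.18 ± 0.083. Of 17 measured replication-dependent histones 15 lay higher (median 0.058), and H2BC4 was the 1 under the threshold. The histone mean was -0.15 in OSe animal 4 and 0.13 to 0.15 in the other OSe calves, whereas the 29 measured genes of cell cycle and mitosis had a median of -0.0063.

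Complement genes gave 2 members under the unadjusted threshold among 25 measured, both higher, where 1.55% of all genes were higher at that level. C4A, the fourth complement component, measured 11.003, 10.78, 10.66, 10.68 and 10.83 in ISe and 11.23, 11.13, 11.29 and 10.93 in OSe. OSe animals 1 to 3 lay above every ISe calf, OSe animal 4 just under ISe animal 1, and the difference was 0.35 ± 0.11; cattle carry near-identical C4 copies that the probe set may not separate. C2, the partner protease, measured 7.06, 7.25, 7.27, 7.21 and 6.86 in ISe and 7.62, 7.31, 7.57 and 7.24 in OSe, with OSe animal 4 inside the ISe range, and differed by 0.31 ± 0.11. Of the list, 16 lay higher, and the list mean was -0.20 in OSe animal 4 and 0.11 to 0.24 in the other OSe calves. SERPING1, the C1 inhibitor, and C1S, the C1 protease, differed by 0.17 ± 0.11 and 0.42 ± 0.26.

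Immune cell lists did not separate the groups. The macrophage and myeloid mean was -0.31 in OSe animal 4 and 0.13 to 0.21 in the other OSe calves, and AIF1, a macrophage calcium-binding protein, differed by 0.24 ± 0.20, 0.11 without OSe animal 2. The interferon-stimulated mean reached 0.50 in ISe animal 1 and was -0.37 in ISe animal 4 and -0.32 in OSe animal 4. IRF1, an interferon regulatory factor, differed by 0.31 ± 0.16, and CD68, a lysosomal macrophage protein, by 0.16 ± 0.25, -0.053 without OSe animal 3. Red cell genes were highest in ISe animal 2 (list mean 0.38), where HBA, an alpha globin, was 9.16 and ALAS2, the erythroid enzyme that starts haem synthesis, 7.44. Both were named after their values were seen. HBB, beta globin, was 9.71 in OSe animal 2 and 9.40 in ISe animal 2, and its group difference was -0.018 ± 0.50. That difference was -0.48 without OSe animal 2 and 0.25 without ISe animal 2.

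Markers of tissue around the testis varied in single genes. Of 17 measured skeletal muscle genes 12 lay lower (median -0.098, list mean -0.20 in OSe animal 1), and MYH7, slow myosin, differed by -0.63 ± 0.37 by one probe set. Its other probe sets gave 0.15 ± 0.13 and 0.066 ± 0.12. Their ISe and OSe means were 5.54 and 5.69, and 5.77 and 5.84, under the 25th percentile of probe set means (6.26). The first probe set had means of 6.71 in ISe and 6.08 in OSe. Among 34 immediate early genes, which respond to handling and to signals within the tissue, 24 lay higher, and EGR1, a zinc finger factor of that class, differed by 0.36 ± 0.17. CDKN1C, an imprinted inhibitor of cell division, measured 8.97, 9.04, 9.25, 8.92 and 8.86 in ISe and 9.05, 9.44, 10.06 and 9.25 in OSe. OSe animals 2 and 3 lay above the ISe range, OSe animal 3 most, and OSe animal 4 stood level with its top. The difference was 0.44 ± 0.17, and 0.24 without OSe animal 3. The zinc exporter SLC30A2 differed by 0.34 ± 0.16 and the adipokine LEP by 0.16 ± 0.068. LEP lay between 5.42 and 5.75 in the ISe and OSe calves, under the 25th percentile of probe set means (6.26).

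The largest differences in size belonged to genes with wide spread. OR2J3D, an olfactory receptor, measured 7.07, 4.39, 3.77, 6.69 and 7.17 in ISe and 6.998, 8.19, 7.32 and 7.62 in OSe. ISe animals 2 and 3 were far below the others, and ISe animals 1 and 5 lay just above OSe animal 1. The difference was 1.71 ± 0.62, and olfactory receptor genes share sequence. OR2J3B of the same family differed by 1.04 ± 0.51, and POLR2L, a small RNA polymerase subunit, by 0.76 ± 0.28. POLR2L measured 7.50, 7.57, 7.58, 7.82 and 7.65 in ISe and 8.35, 8.87, 7.56 and 8.77 in OSe. OSe animals 1, 2 and 4 lay above every ISe calf and animal 3 among them, and the Mix calves spread between 7.63 and 8.83. BOLA-DQA1, a class II antigen-presenting chain that differs in sequence between animals, was 0.71 ± 0.39 by one probe set and 0.026 ± 0.20 by another. The first had means of 9.26 in ISe and 9.97 in OSe. The other had 4.26 and 4.29, under the 25th percentile of probe set means (6.26), so its small difference may say little about expression.

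On the lower side, RBIS, a ribosome biogenesis factor, differed by -0.61 ± 0.32, LRRN1, a leucine-rich neuronal membrane protein, by -0.56 ± 0.24, HTR3A, a serotonin-gated channel, by -0.56 ± 0.37, MIR2369 by -0.75 ± 0.43 and the urea transporter SLC14A1 by -0.53 ± 0.23. Without OSe animal 3 the difference was -0.37 for RBIS and -0.20 for HTR3A. XIST differed by -0.57 ± 0.44, and by -0.057 without ISe animal 2. The widest spreads lay within both groups. SPP1, osteopontin, ran from 7.81 to 11.75 within ISe and from 7.16 to 10.70 within OSe, a difference of -0.17 ± 0.87. STMN2, a neuronal microtubule protein, reached 10.62 in ISe animal 5 and 10.25 in OSe animal 3, and DNER, a neuronal Notch ligand, differed by 0.12 ± 0.59, -0.29 without OSe animal 2. The interferon-gamma-induced chemokines CXCL9 and CXCL11 differed by 0.45 ± 0.56 and 0.44 ± 0.62.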

How the data were processed

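Testis RNA of 13 newborn calves was measured on Affymetrix arrays, 1 per calf, and array titles gave the groups. The authors deposited log2 values for every probe set on every array. RNA was extracted with Trizol and copied with oligo(dT) primers into biotin-labelled cRNA, per the labels' protocols, and GCOS 1.2 and Partek 6.4 are named in the submitters' processing notes. Background correction and normalization are not given in the sources used here, so the centring of the arrays is unknown; the log2 scale follows from the range of values (2.07 to 14.6). The labels and the value table gave no scan date or slide.

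The platform annotation gave 1 symbol to 18550 of 26773 probe sets, several to 595 and none to 7628. A single gene identifier was given for 18166, and 17996 of these were found in the reference table (assembly ARS-UCD2.0), with 0 symbols changed. No probe set was marked as a control, and all were tested. No pair of arrays was identical, and 297 probe sets had values identical to another.

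All 13 arrays entered 1 linear model with 1 mean for each of the 3 groups (limma 3.58.1, R 4.3.3), moderated by empirical Bayes with 3.28 prior degrees of freedom. The contrast was OSe minus ISe, with two-sided p-values adjusted by the Benjamini-Hochberg method over all probe sets and a threshold of 0.05. Errors of differences are standard errors. Where a gene had several probe sets, the one with the highest mean was used (18087 genes). The fit was also run on simulated data for this contrast over 26773 probe sets. Differences of 0.5, 1 and 2 on the log2 scale were planted in 67, 67 and 66 of them. The fit recovered 58.2%, 88.1% and 98.5% of these, with 16 false calls. Whether these shares hold for the measured arrays was not tested.

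The comparison, the 37 gene lists and the rule for named genes were chosen with earlier results of these data known, so lists are described by counts and medians with no test. The rule took, above the 25th percentile of means (6.26), the 15 genes with the smallest p each way, the 8 with the largest difference each way and the 8 with the largest spread. It added every measured selenoprotein and sterol gene, up to 4 members of each other list by p, and fixed testis genes; of these ACTA2 shares its probe set with other genes and is not reported. Animal numbers are shared between the groups but come from different calves: the correlations of deviations between same-numbered calves were -0.094, 0.00076, 0.0072 and -0.042, so the groups were not paired. The planned search for a promoter motif was not run, and no sequences were used here. Python 3.11.15 and matplotlib 3.10.9 drew the figures.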

Additional observations from a re-analysis of the deposited data

Results flagged for a closer look

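In groups of 4 or 5 calves, a value was looked at again when its gap to the next calf was large against the whole range of its group. Of 366 groups tested 27 showed such a value. For independent groups not chosen from these data, chance would give about 1 in 20, or 18.3. The groups here include genes picked by p or spread, and list means beside their own members. The counts therefore cannot show an excess over chance. OSe animal 3 held 7 of the 27 values: DHCR7 at 11.24, EBP at 9.93, MSMO1 at 11.28, NSDHL at 10.35, SQLE at 10.75, TM7SF2 at 8.55 and the sterol list mean at 1.11. EBP is the sterol isomerase and TM7SF2 a sterol reductase, so all these values belong to 1 pathway in 1 calf.

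OSe animal 2 held 4, its array median of 7.74, HBB at 9.71, SELENOV at 6.69 and SEMA3D at 10.1. OSe animal 4 was set apart by the means of the histone list (-0.15), the macrophage list (-0.31) and the interferon list (-0.32), and by SLC14A1 at 9.27, the highest of its group. In OSe animal 1, GSTA2 lay low at 6.66.

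ISe animal 2 stood apart for XIST at 9.05, ALAS2 at 7.44, GSTA4 at 10.57, the lowest of its group, and DIO1 at 5.52, where the range of the group was small. ISe animal 3 was low for INSIG1, an anchor of sterol sensing, at 8.64 and UCHL1 at 9.89, and high for SELENOK at 7.33. ISe animal 5 was high for STMN2 at 10.62 and low for LEP at 5.42, ISe animal 4 was low for TM7SF2 at 6.88, and ISe animal 1 had the lowest lymphocyte mean, -0.14.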

How the results depend on the processing

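No probe set passed the adjusted threshold in any of 18 alternatives to the limma fit, and the lowest adjusted p was 0.0816, without OSe animal 3, for a probe set with no gene symbol. At an unadjusted p under 0.05 the count, 701 in the main analysis, was 428 of 20079 brighter probe sets and 437 of 18550 with 1 symbol, where fewer were tested, and 575 to 953 when 1 calf was left out. Of the 189 on the lower side there were 313 without ISe animal 3, 371 without OSe animal 2 and 362 with array weights. The replicate block over animals 1 to 4, which are different calves, gave 710 and changed no call. Probe sets without overlap numbered 199, and 324 to 666 when any 1 of the 9 calves was left out, since fewer calves must be separated. With OSe animals 2 and 3 both left out, an alternative chosen after seeing the data, they numbered 1674 and the unadjusted count was 703. Of 230 named genes 56 turned sign in at least 1 alternative, and of the 30 first by p 0 did. Of 37 list medians 14 kept their sign throughout. Signal over background could not be computed.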

Other observations

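Several genes of the chromosome that holds the major histocompatibility complex lay higher in OSe, a pattern chosen after the values were seen and given with no test. In the gene order of the ARS-UCD2.0 assembly, 17 of 553 measured genes of that chromosome (3.07%) fell under an unadjusted p of 0.05, against 2.02% of all genes. Of the 17, 16 lay higher and 1, HSP90AB1, lower, where 1.55% of all genes were higher and 0.47% lower. The share of 3.07% was the third highest of 30 chromosomes, which ranged from 1.05% to 3.62%, and no gene passed the adjusted threshold. H2BC4, ENPP5, GSTA4, C4A, C2, HSPA1A, MOG and OR2J3D are among the 16. So are LOC782262, OR2J3, OR2N1O, OR2AD1, MIR2379 and MIR2284C, whose ISe and OSe means lay under 6.26, the 25th percentile of probe set means. OSe animal 2 was the highest of the 9 calves in MOG, OR2J3D, OR2J3 and MIR2284C, among others. It was not the highest in H2BC4, ENPP5, GSTA4, C4A, C2 or HSPA1A. Between C4A and HSPA1A lie 10 measured genes in a row, counting both, of which 7 lay higher and 4 had an unadjusted p under 0.05, with a median difference of 0.12. Both end genes were themselves higher and under that threshold, so these counts partly follow from the choice of the stretch and cannot show a cluster. Over all genes 59.8% lay higher, 2.02% had an unadjusted p under 0.05, and the median difference was 0.022. STK19, a nuclear protein next to C4A, measured 9.30, 9.48, 9.30, 9.49 and 9.71 in ISe and 9.78, 9.98, 9.55 and 9.71 in OSe. OSe animals 1 and 2 lay above every ISe calf, and the difference was 0.30 ± 0.11. NCR3, a natural killer cell receptor, differed by 0.24 ± 0.092, and OR2AD1, an olfactory receptor, by 1.08 ± 0.31, of which OSe animal 2 held the highest value, 7.17. Without that animal the OR2AD1 difference was 0.78. Neighbouring genes can share inherited variants and probe sequence, whose part in these values was not tested.

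The remaining lists had medians from -0.031 (lymphocytes) to 0.063 (vascular endothelium), against 0.022 over all genes, of which 59.8% lay higher. Members higher in OSe were 18 of 27 chemokines (median 0.057), 8 of 18 lymphocyte genes (-0.031), 11 of 22 nerve and glia genes (-0.0020), 7 of 17 rete testis and duct genes (-0.016) and 7 of 12 adipocyte genes (0.023). They were 9 of 18 imprinted growth genes, 8 of 11 MAGE genes (0.030), 16 of 23 metallothionein and zinc transporter genes (0.056), 11 of 18 thyroid hormone genes (0.032), 22 of 38 nuclear oxidative phosphorylation genes (0.016) and 16 of 26 cytosolic ribosomal protein genes (0.0048). Of 20 endothelial genes 14 lay higher, of 15 myoid genes 9, of 20 macrophage genes 10, of 27 interferon-stimulated genes 11 and of 13 red cell genes 6.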
